A study of Rattus norvegicus with 36 samples.

Results

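Mitosis genes were described in rat granulosa cells, the somatic cells that surround the oocyte in the ovarian follicle and make estradiol. The set was a given list of 50 genes for the spindle, the kinetochore, cytokinesis, the chromosomes and the kinases, cyclins and degradation factors of mitosis. Of these, 44 were measured by a probe set that the platform annotation assigns to 1 gene, out of 14217 genes measured that way. Kif4a, Ndc80, Ncapg and Nek2 had no such probe set, and Ckap2 and Anln were present only on probe sets shared with another gene. Where a gene had several probe sets, the one with the highest mean log2 intensity over all arrays was used.

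Cells came from Sprague-Dawley rats of 21 to 27 days and attached for 24 h with 5% serum present. They were then kept for 48 h in medium free of serum with androstenedione, the androgen from which granulosa cells make estrogen (0.1 µM in the series' design text, given as 0.1 M in the sample descriptions). All 12 groups shared these conditions. Each group received no stimulus (basal), FSH at 3 ng/ml or cAMP at 1 mM, together with HPTE at 0, 1, 5 or 10 µM. HPTE is the hydroxylated metabolite of the pesticide methoxychlor. FSH is the pituitary hormone that drives follicle growth and acts in these cells through cAMP. The form of cAMP was not given. Each group had 3 arrays, numbered 1 to 3, made from 40 ng of RNA after amplification, for 36 arrays in all. Whether the arrays of a group stand for separate animals or separate wells is not stated in the labels, so p-values measure the spread between these samples only.

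In mitosis, cyclin-dependent kinase 1 with its A and B cyclins drives entry, kinesin motors and microtubule-binding proteins build the spindle, and kinetochores attach chromosomes to it under watch of the spindle checkpoint. The anaphase-promoting complex then ends the phase by degrading cyclins and securin, and the centralspindlin complex with Ect2 directs the cleavage furrow. Most of these genes are transcribed in G2 and mitosis, so their summed RNA in a tissue follows the number of dividing cells, and granulosa cells of growing follicles are among the dividing cells of the ovary.

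Promoter sequences are shown for the 4 genes with the largest fall at 10 µM HPTE in basal cells among those with a sequence in the RefSeq table, because genes of G2 and mitosis are known to share short promoter elements. Each runs 5′ to 3′ on the gene's strand from 250 bases before to 50 bases after the table's start site, in build GRCr8. Capitals mark the core of the cell cycle homology region (TTTGAA, or its variant TTCGAA) and CCAAT. Both strands were searched, and on the opposite strand TTTGAA reads TTCAAA and CCAAT reads ATTGG. The table gives 1 start per gene, and in these 4 genes it lies inside the full span that RefSeq gives the gene. The regions are chr8:71320535-71320834 (minus strand) for Kif23, chr1:244536617-244536916 (plus strand) for Kif11, chr3:74396669-74396968 (minus strand) for Spc25 and chr10:25665166-25665465 (minus strand) for Hmmr.
Kif23: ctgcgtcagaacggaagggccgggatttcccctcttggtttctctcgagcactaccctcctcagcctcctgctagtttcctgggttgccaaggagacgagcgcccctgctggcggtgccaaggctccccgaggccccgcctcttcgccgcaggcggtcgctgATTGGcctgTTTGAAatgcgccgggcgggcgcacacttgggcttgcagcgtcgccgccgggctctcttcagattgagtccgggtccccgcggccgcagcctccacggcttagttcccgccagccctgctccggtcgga
Kif11: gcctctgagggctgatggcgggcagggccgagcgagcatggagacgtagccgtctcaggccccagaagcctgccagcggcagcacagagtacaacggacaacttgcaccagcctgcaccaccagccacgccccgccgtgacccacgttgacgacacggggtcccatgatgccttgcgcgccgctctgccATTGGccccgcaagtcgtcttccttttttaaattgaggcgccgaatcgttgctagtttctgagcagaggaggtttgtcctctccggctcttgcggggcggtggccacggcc
Spc25: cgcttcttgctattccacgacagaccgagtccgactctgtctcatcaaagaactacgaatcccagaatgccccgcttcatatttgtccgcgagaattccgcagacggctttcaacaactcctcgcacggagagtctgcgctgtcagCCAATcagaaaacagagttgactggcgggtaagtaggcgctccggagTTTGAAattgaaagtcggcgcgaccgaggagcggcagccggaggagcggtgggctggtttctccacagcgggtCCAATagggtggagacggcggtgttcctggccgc
Hmmr: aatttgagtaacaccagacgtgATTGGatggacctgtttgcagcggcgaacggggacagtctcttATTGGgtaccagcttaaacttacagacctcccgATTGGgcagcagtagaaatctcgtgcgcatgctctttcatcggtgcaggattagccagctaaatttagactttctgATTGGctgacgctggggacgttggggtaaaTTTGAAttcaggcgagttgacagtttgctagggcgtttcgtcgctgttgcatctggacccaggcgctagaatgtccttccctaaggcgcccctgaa

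The Kif23 sequence held TTTGAA at -79 to -74 and 1 CCAAT on the opposite strand at -88 to -84. The Kif11 sequence held no cell cycle homology core and 1 CCAAT on the opposite strand at -61 to -57. In Spc25, TTTGAA lay at -57 to -52 and CCAAT at -104 to -100 and at 17 to 21. Hmmr had TTTGAA at -46 to -41 and 4 copies of CCAAT on the opposite strand. Of the 38 measured members with a promoter in the table, 25 (65.8%) held TTTGAA on either strand, against 18.1% of all 27457 promoters of the same length. TTCGAA was found in 3 members (7.89%, against 1.77%) and CCAAT in 29 (76.3%, against 37.7%). Both a core and CCAAT were found in 23 members (60.5%, against 7.83%). A core was present in 16 of the 22 members with a sequence that fell at 10 µM HPTE in basal cells and in 10 of the 16 that were not called. Kif18a, Kif2c, Bub1, Aurka, Melk and Ncaph held none of the 3 motifs in this window. Matches of such short motifs describe the sequence only. Ccna2, Ube2c, Racgap1, Incenp, Pbk and Aurkb had no entry in the table.

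An adjusted p under 0.05 in limma, fitted over 31042 probe sets, is the call used throughout. Counts of members at an unadjusted p are no calls and are given without a share over all probe sets. Several granulosa markers were bright, with mean log2 intensities of 13.82 for the gap junction gene Gja1, 13.2 for the inhibin subunit Inhba and 11 for the transcription factor Foxl2. Other granulosa markers were not, among them Amh (7.29), Cyp19a1 (6.99) and Esr2 (5.69). The leukocyte gene Ptprc (5.31), the endothelial gene Pecam1 (5.61), the oocyte gene Bmp15 (5) and the theca gene Cyp17a1 (5.15) were dim, while Lyz2 (8.61), Kdr (8.88), Col3a1 (9.79) and Zp2 (7.91) were not. None of the 30 measured markers of leukocytes, endothelium, oocyte or surface epithelium was called at 10 µM HPTE in any stimulus. The log2 ratio of 3′ to 5′ Gapdh probe sets, a measure of RNA or cDNA length, was 0.77 to 1.07 on the arrays numbered 3 against 1.61 to 2.4 on those numbered 1 and 2. Array number 2 of the unexposed FSH and cAMP groups went against its label. For Lhcgr, the luteinizing hormone receptor, log2 intensities of arrays 1, 2 and 3 were 10.27, 5.94 and 11.5 with FSH and 5.66, 10.04 and 5.8 with cAMP. Cyp19a1, the aromatase gene, gave 11.49, 7.48 and 11.46 with FSH and 7.62, 11.01 and 6.46 with cAMP. In both genes number 2 of each group lay near the other group's arrays. The main counts of members that use these groups are therefore given with both arrays and without both. So are the differences of the genes that the results turn on. Counts by role and of genes outside the set are given with both arrays only. Number 2 with FSH was also the lowest of its group in Cyp19a1 at 1 µM (11.37, 9.03 and 11.23) and 5 µM (9.03, 5.08 and 8.26). The number 2 arrays at these doses were kept in the fits without both.

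Mitosis genes as a set were lowest at 10 µM HPTE under each stimulus and highest with cAMP and 1 µM HPTE. The mean log2 intensity over the 44 genes was 8.46 to 8.6 on the unexposed basal arrays and 7.17 to 7.65 on those at 10 µM. With FSH the arrays spanned 8.17 to 8.57 without HPTE and 7.48 to 7.85 at 10 µM, and with cAMP 7.84 to 8.47 and 7.13 to 7.35. In each stimulus the 3 arrays at 10 µM lay below the 3 unexposed arrays. In order of their group means the 12 groups ran from cAMP with 1 µM (8.77), basal without HPTE (8.54) and basal with 1 µM (8.54), through FSH with 1 µM (8.41), FSH without HPTE (8.31), cAMP with 5 µM (8.3), cAMP without HPTE (8.18), FSH with 5 µM (8.18) and basal with 5 µM (8.13), to FSH with 10 µM (7.62), basal with 10 µM (7.46) and cAMP with 10 µM (7.21). Neighbours in this order overlapped in their arrays except at 2 places. The group with cAMP and 1 µM stood 0.23 above unexposed basal cells, and basal cells with 5 µM stood 0.51 above FSH with 10 µM. In bulk RNA, fewer dividing cells and less of these RNAs per cell cannot be told apart.

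**Figure D1:**
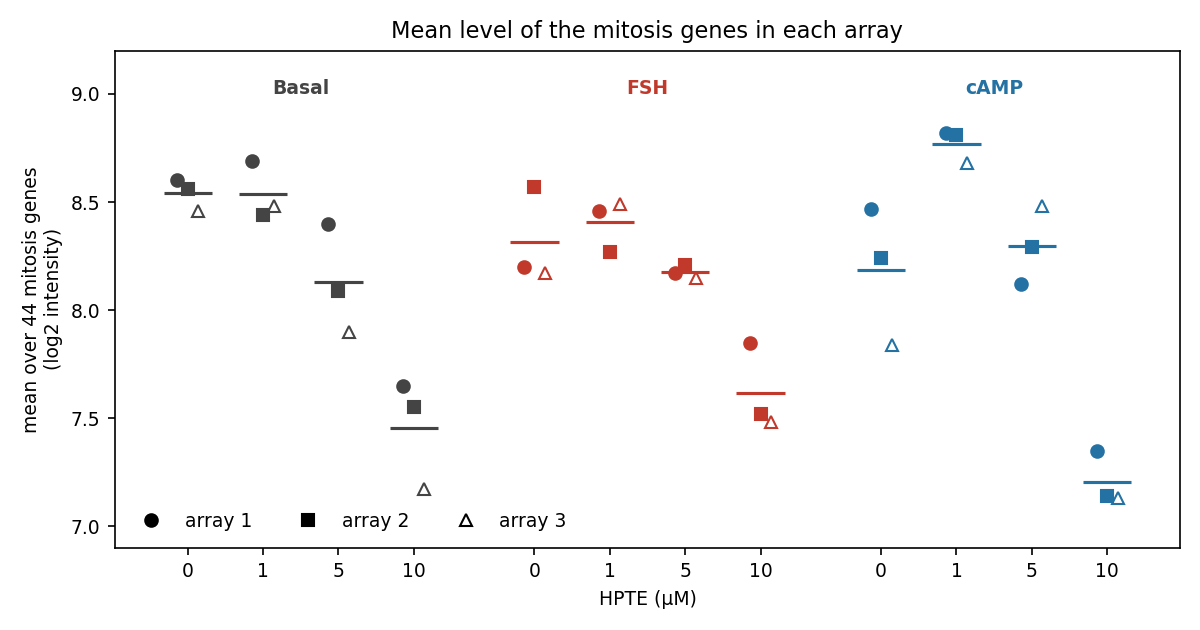
Mean log2 intensity over the 44 measured mitosis genes (y axis) on each of the 36 arrays, by stimulus and HPTE dose (x axis). Under each stimulus the 3 arrays at 10 µM lie below the 3 arrays without HPTE, and the highest group is cAMP with 1 µM HPTE at a mean of 8.77.

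In basal cells 10 µM HPTE lowered 26 of the 44 mitosis genes and raised none, where 0.602% of all probe sets were called lower and 0.416% higher. All 44 differences were below 0, from -1.73 for Ccna2 to -0.51 for Cdc25b, with a median of -1.11 on the log2 scale. Over all probe sets the median was 0.02 and 45.3% of the differences were below 0. In 41 of the genes the 3 exposed arrays lay below the 3 unexposed arrays, as did those of 4.76% of all probe sets, and Kif20a, Aspm and Cdc25b were the exceptions. Taken by array number, all 44 genes were lower on each of the 3 exposed arrays than on the unexposed array of the same number. With the array number as a block, 39 genes were called lower (1.8% of all probe sets), the 26 among them, and Kif2c, Kif18a, Cenpe, Cdc25b and Cdc20 were not called. A fit on the compared groups alone, with fewer arrays to estimate the spread, called 9, and leaving out 1 array gave 13 to 25, the lowest without number 3 of the group at 10 µM.

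With FSH, 10 µM HPTE lowered 14 of the 44 genes and raised none, where 3.95% of all probe sets were called lower and 4.51% higher. The median difference was -0.72, against -0.009 over all probe sets, and 43 differences were below 0. Arrays of the compared groups did not overlap in 27 genes that were lower (10.4% of all probe sets) and in 1, Kif18a, that was higher (9%). The block called 35 lower (8.71% of all probe sets). Without both number 2 arrays 7 were called lower, where 4.03% of all probe sets were, and the median was -0.608. A fit on the compared groups alone called 4, and leaving out 1 array gave 7 (without number 2 of the unexposed FSH group) to 19 (without number 1 at 10 µM). Of the 15 granulosa markers, 8 were lower and 1 higher in this comparison. Their summed linear intensity was 50100 to 68900 without HPTE and 34500 to 40000 at 10 µM, and their part in the mitosis gene values was not tested.

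With cAMP, 10 µM HPTE lowered 20 of the 44 genes and raised none, where 0.486% of all probe sets were called lower and 1.2% higher. The median difference was -1.01, against -0.024 over all probe sets, and 43 differences were below 0. In 31 genes the exposed arrays lay below the unexposed ones, against 5.19% of all probe sets. The block called 37 lower (1.95% of all probe sets) and the fit without both number 2 arrays 16 (0.776%), with a median of -0.927. A fit on the compared groups alone called 3, and leaving out 1 array gave 10 (without number 1 of the unexposed cAMP group) to 23 (without number 3 of it). None of the 15 granulosa markers was called with cAMP or in basal cells, where their medians were -0.08 and -0.27. Of 12 theca and stroma markers, 1 fell in basal cells, 2 fell and 2 rose with FSH, and 1 fell and 1 rose with cAMP.

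Lower at 10 µM under all 3 stimuli were 11 genes: Aurkb, Bub1, Ccnb2, Cenpf, Ect2, Kif11, Nuf2, Pbk, Racgap1, Spc25 and Top2a. Some of these calls ended without both arrays that went against their labels. Among them were Aurkb, Bub1, Cenpf and Pbk with FSH and Pbk and Spc25 with cAMP. The share of all probe sets called under all 3 stimuli was not counted. Another 11 were lower under 2 stimuli, and Bub1b, Ccna2, Cdca8, Mad2l1 and Melk under 1. The 17 called under none were Aspm, Kif2c, Kif18a, Kif20a, Kif22, Nusap1, Prc1, Cenpe, Birc5, Incenp, Mki67, Smc4, Cdc20, Cdc25b, Cdca3, Pttg1 and Ube2c. Several of these had differences as large as called genes, such as Nusap1 (-1.25 in basal cells, adjusted p 0.291) and Ube2c (-1.4 with cAMP, adjusted p 0.0692). With the block, Kif18a, Cenpe, Cdc25b and Cdc20 were the 4 members called under no stimulus. The 3 comparisons use separate arrays but are not independent. Deviations from group means correlated between arrays of the same number in most comparisons of groups. All groups also share 1 estimate of the spread per probe set. For the difference between stimuli in the effect of 10 µM HPTE, limma called no member in any of the 3 pairings of stimuli, where 1.38% of all probe sets were called higher for FSH against basal cells, 0.11% for cAMP against basal cells and 1.03% for FSH against cAMP. At an unadjusted p under 0.05, 7 members differed between FSH and basal cells, 1 between cAMP and basal cells and 4 between FSH and cAMP. These unadjusted counts were not set against all probe sets and are not read as a result. With the block, Kif23, Hmmr and Cdk1 fell less with FSH than in basal cells (3.84% of all probe sets called higher), and Kif23, Ect2 and Cdk1 less with FSH than with cAMP (2.88%).

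**Figure D2:**
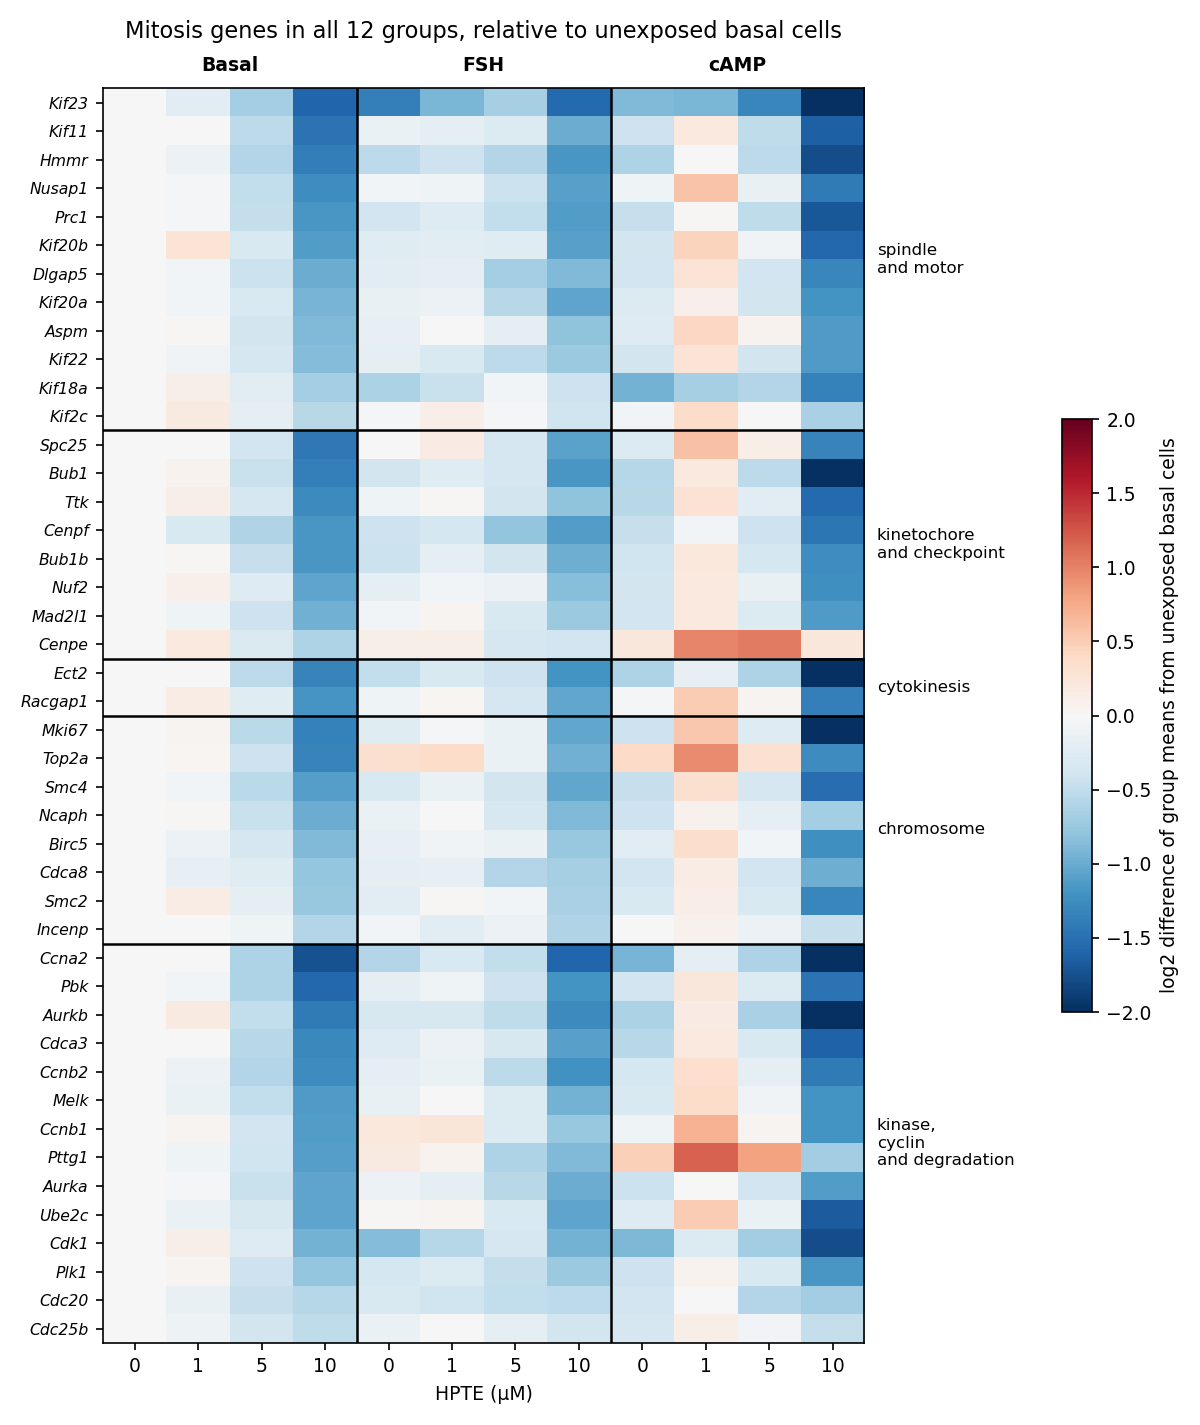
Difference in mean log2 intensity from unexposed basal cells (colour, from -2 to 2) for each of the 44 mitosis genes, grouped by role, in the 12 groups of stimulus and HPTE dose. The columns at 10 µM HPTE are below 0 for nearly every gene. With cAMP at 1 µM the mean over the genes is 0.23 above unexposed basal cells. Cenpe, Top2a and Pttg1 are among the genes above 0 with cAMP at both 1 and 5 µM.

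**Figure D3:**
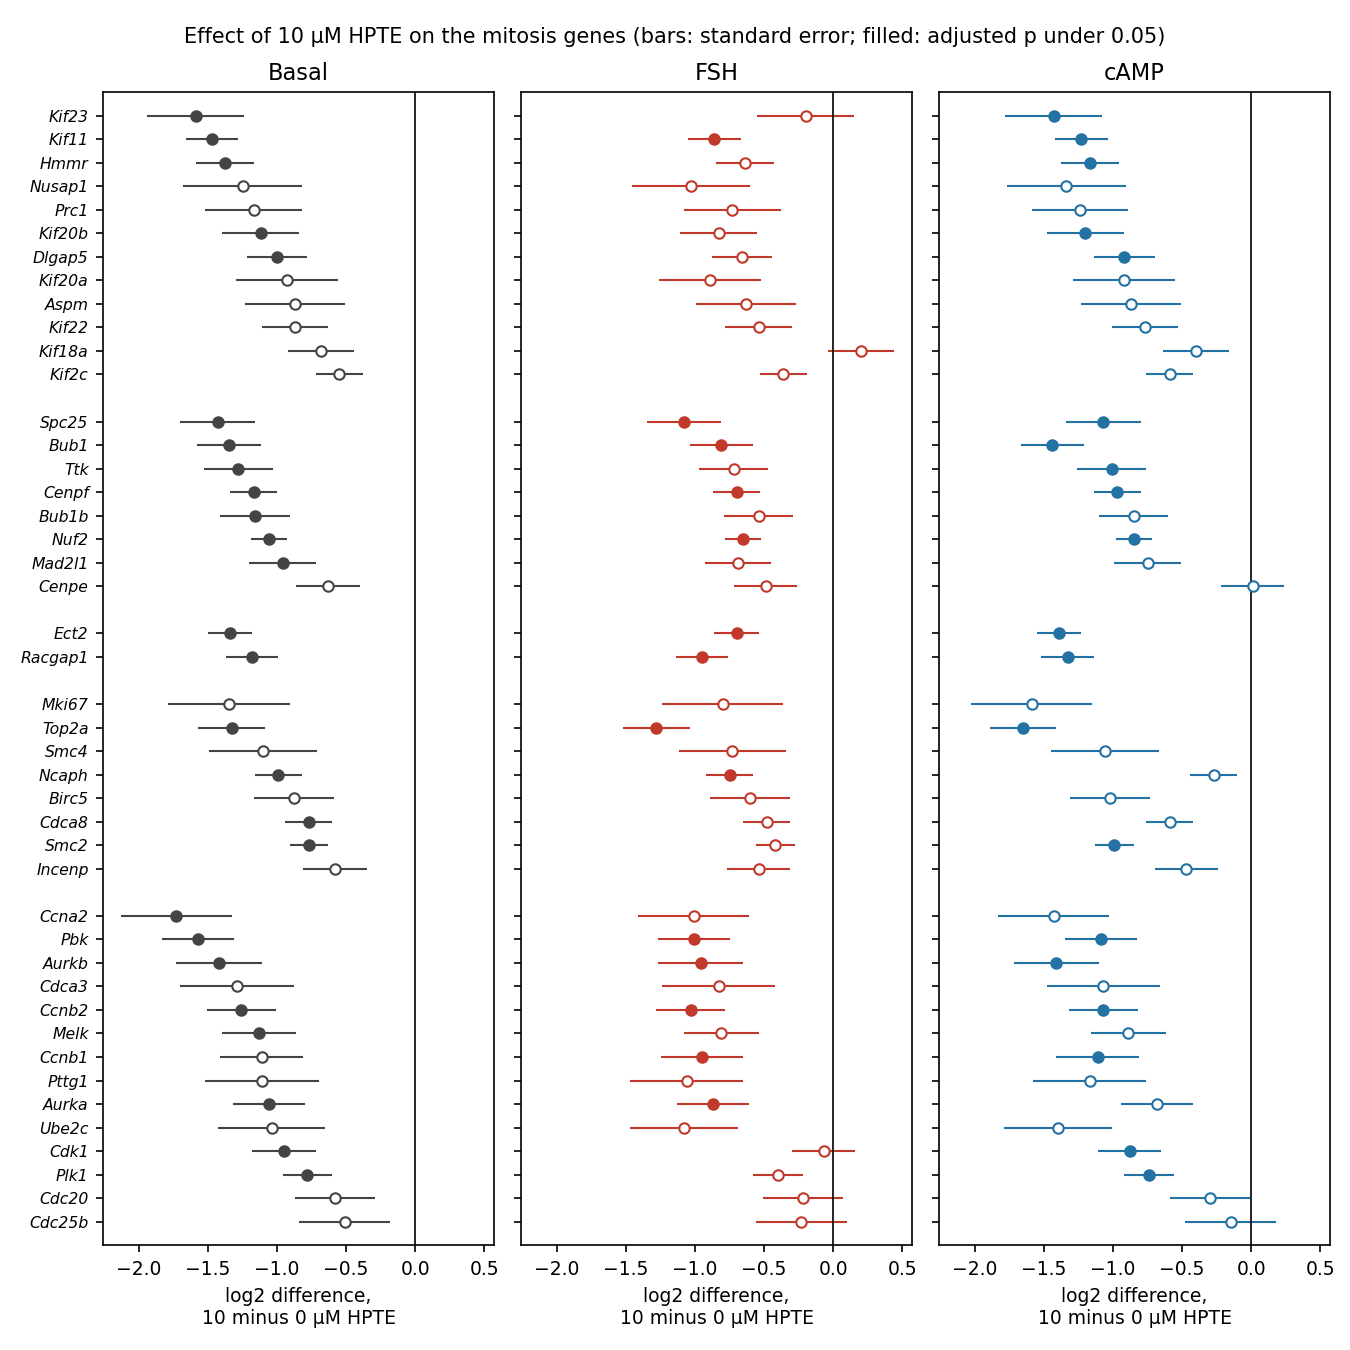
Log2 difference between 10 and 0 µM HPTE with its standard error for each of the 44 genes in basal, FSH and cAMP cells; filled points have an adjusted p under 0.05. All points in basal cells lie below 0, and Kif18a with FSH (0.2) and Cenpe with cAMP (0.01) are the 2 points above 0 under the other stimuli.

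Of the 12 spindle and motor genes, 10 µM HPTE lowered 5 in basal cells, 1 with FSH and 5 with cAMP, with medians of -1.06, -0.65 and -1.04. Of all probe sets, 0.602%, 3.95% and 0.486% were called lower in the same order, here and for each role below. In this fit the 1 spindle gene called with FSH is near that background, although their median lay below that of all probe sets (-0.009). With the block, 35 of the 44 members were lower with FSH (8.71% of all probe sets), and blocked counts by role are not given. Kif11 encodes the motor that pushes the spindle poles apart. Its log2 intensities in basal cells were 8.08, 8.03 and 8.05 on arrays 1, 2 and 3 without HPTE and 6.75, 6.76 and 6.25 at 10 µM. The groups were more than 1 log2 unit apart, a difference of -1.47 ± 0.19 (SE), or 2.77-fold lower, with an adjusted p of 4.15e-05. With FSH the values were 7.94, 8 and 7.81 against 7.3, 6.97 and 6.91, and with cAMP 7.97, 7.6 and 7.35 against 6.57, 6.61 and 6.06. Neither pair of groups overlapped, and the differences were -0.86 ± 0.19 (adjusted p 0.00289) and -1.23 ± 0.19 (adjusted p 0.000217), or -0.82 (0.016) and -1.25 (0.00116) without both arrays that went against their labels. A dimmer probe set of Kif11 differed by -0.36 in basal cells (adjusted p 1), so that the mean of both probe sets gave -0.92 in basal cells and -0.72 with cAMP. Hmmr, a spindle assembly factor, fell by 1.38 in basal cells (adjusted p 0.000315) and by 1.17 with cAMP (adjusted p 0.00128), while its other probe set differed by -0.31 in basal cells and the mean of both by -0.85.

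Kif23 is the motor subunit of centralspindlin, which bundles microtubules between the separating chromosomes. In basal cells its arrays gave 11.22, 11.14 and 10.6 without HPTE and 9.86, 9.49 and 8.84 at 10 µM. All exposed arrays were lower, by -1.59 ± 0.35 on average, or 3.01-fold (adjusted p 0.0184). That call ended without unexposed number 1 (-1.47, adjusted p 0.105) or 2 (-1.51, 0.103) and without exposed number 2 (-1.63, 0.0525) or 3 (-1.31, 0.148). A second Kif23 probe set differed by -0.57 (adjusted p 0.401). With cAMP the arrays gave 10.31, 9.94 and 10.03 without HPTE and 8.71, 8.76 and 8.51 at 10 µM, again without overlap. The fall there was 1.43 on the log2 scale (adjusted p 0.0278), and the mean of both probe sets gave -0.76. It was no longer called without number 1 (-1.33, adjusted p 0.129) or 3 (-1.47, 0.0691) of the unexposed group or without number 1 (-1.46, 0.077), 2 (-1.48, 0.0718) or 3 (-1.36, 0.137) at 10 µM.

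With FSH, Kif23 gave 9.37, 10.66 and 8.82 without HPTE and 9.79, 9.35 and 9.11 at 10 µM. These groups overlapped, with number 2 of the unexposed group, one of the arrays that went against their labels, the highest of the 6. The difference was -0.2 ± 0.35 (adjusted p 0.93) and, without both such arrays, 0.32 (adjusted p 0.852). Kif2c, a kinesin that shortens microtubules, had the smallest change of the spindle genes in basal cells. Its arrays gave 6.7, 6.89 and 7.14 without HPTE and 6.33, 6.26 and 6.49 at 10 µM, which did not overlap but differed by only -0.55 ± 0.17 (adjusted p 0.161). With cAMP the Kif2c difference of -0.59 was called only with the block (adjusted p 0.0785 without it and 0.0287 with it).

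Kif18a, a motor that dampens chromosome movements at the spindle equator, was the only member above 0 at 10 µM with FSH when all arrays were used. Without both arrays that went against their labels, Kif23 and Cdk1 were above 0 as well. The Kif18a arrays with FSH gave 6.42, 6.53 and 6.38 without HPTE and 6.66, 6.56 and 6.72 at 10 µM. The exposed arrays were all slightly higher, by 0.2 ± 0.24 on average (adjusted p 0.853). In basal cells the values were 7.09, 7 and 7.11 against 6.08, 6.61 and 6.48, a difference of -0.68 (adjusted p 0.328).

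Of the 8 kinetochore and checkpoint genes, 10 µM HPTE lowered 7 in basal cells, 4 with FSH and 5 with cAMP, with medians of -1.17, -0.69 and -0.91. Spc25 is a subunit of the Ndc80 complex, which holds microtubule ends at the kinetochore. Its log2 intensities in basal cells were 8.37, 8.21 and 7.8 without HPTE and 6.58, 7.06 and 6.47 at 10 µM. The groups were separate and differed by -1.43 ± 0.27, or 2.69-fold (adjusted p 0.00457). With FSH they were 8.12, 8.46 and 7.85 against 7.47, 6.91 and 6.8, and the fall of 1.08 (adjusted p 0.00919) was no longer called without number 2 unexposed (-0.92, adjusted p 0.0608) or number 3 at 10 µM (-0.95, 0.0653). With cAMP they were 8.39, 8.15 and 7.04 against 7.16, 6.62 and 6.6, so that unexposed number 3 lay below one exposed array. The cAMP difference of -1.07 ± 0.27 (adjusted p 0.0361) ended as a call without unexposed number 1 (-0.8, adjusted p 0.27) or 2 (-0.92, 0.13), without exposed number 2 (-0.98, 0.171) or 3 (-0.97, 0.197), and without both arrays that went against their labels (-0.92, 0.119).

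Bub1, a kinase of the spindle checkpoint, gave 8.48, 8.82 and 8.85 in basal cells without HPTE and 7.52, 7.55 and 7.02 at 10 µM. The exposed arrays were all lower, by 1.35 ± 0.23 on average, or 2.56-fold (difference -1.35, adjusted p 0.00109). With cAMP the arrays gave 8.51, 8.24 and 7.7 against 6.81, 6.68 and 6.65, a difference of -1.44 ± 0.23 (adjusted p 0.000285). With FSH they gave 7.94, 8.76 and 8.38 against 7.76, 7.33 and 7.57. The FSH groups did not overlap, and the fall of 0.81 (adjusted p 0.0213) was not called without number 2 (-0.61, adjusted p 0.162) or 3 (-0.8, 0.0688) unexposed, number 2 (-0.7, 0.122) or 3 (-0.81, 0.0616) at 10 µM, or both arrays that went against their labels (-0.61, 0.169). Nuf2, another Ndc80 complex subunit, fell by 1.06 in basal cells (adjusted p 2.37e-05), by 0.65 with FSH (adjusted p 0.00103) and by 0.85 with cAMP (adjusted p 0.000173). Nuf2 differed by -0.53 with FSH (0.0136) and -0.82 with cAMP (0.000818) without both arrays that went against their labels. Cenpf, a protein of the outer kinetochore, fell by 1.17, 0.7 and 0.97 in the same order (adjusted p 0.000215, 0.00681 and 0.00104). Its FSH call ended without number 2 unexposed (-0.58, adjusted p 0.0565), number 2 at 10 µM (-0.52, 0.0865) or both arrays that went against their labels (-0.58, 0.0598). Without both of those arrays its cAMP difference was -0.93 (0.00474).

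Cenpe, the kinetochore motor that carries chromosomes to the spindle equator, was the only member not below 0 at 10 µM with cAMP. Its log2 intensities with cAMP were 7.38, 7 and 7.09 without HPTE, 7.97, 7.76 and 8.02 at 1 µM, 7.8, 8.13 and 8.01 at 5 µM and 7.19, 6.91 and 7.4 at 10 µM. The arrays at 1 and 5 µM were above all unexposed ones, and those at 10 µM overlapped them. The differences from 0 µM were 0.76 at 1 µM, 0.82 ± 0.23 at 5 µM (unadjusted p 0.00129, adjusted p 0.53) and 0.01 ± 0.23 at 10 µM (adjusted p 1). In basal cells the arrays gave 6.79, 7.11 and 6.93 without HPTE and 6.4, 6.41 and 6.13 at 10 µM, which did not overlap and differed by -0.63 ± 0.23 (adjusted p 0.368).

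Both cytokinesis genes fell at 10 µM under all 3 stimuli on the probe set used. Ect2, the exchange factor that activates RhoA at the cleavage furrow, gave 11.32, 11.43 and 11.46 in basal cells without HPTE and 10.32, 10.27 and 9.61 at 10 µM. With cAMP it gave 10.88, 10.71 and 10.74 against 9.47, 9.5 and 9.2, and with FSH 10.8, 11.04 and 10.85 against 10.42, 10.32 and 9.86. In none of the stimuli did the arrays overlap. The differences were -1.34 ± 0.16 in basal cells (2.53-fold, adjusted p 2.22e-05), -1.39 ± 0.16 with cAMP (2.62-fold, adjusted p 2.79e-06) and -0.7 ± 0.16 with FSH (1.62-fold, adjusted p 0.00334). The FSH call ended without number 3 at 10 µM (-0.53, adjusted p 0.0525). Leaving out both arrays that went against their labels gave -0.62 with FSH (0.0244) and -1.42 with cAMP (1.9e-05).

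Racgap1, the partner of Kif23 in centralspindlin, gave 9.08, 9.01 and 9.27 in basal cells without HPTE and 8.04, 8.06 and 7.73 at 10 µM. With FSH it gave 9.02, 9.04 and 9.02 against 8.16, 7.98 and 8.09, and with cAMP 9.57, 8.75 and 8.92 against 7.8, 7.61 and 7.84. Every exposed array lay below every unexposed array of its stimulus. The differences were -1.18 ± 0.19, -0.95 ± 0.19 and -1.33 ± 0.19, with adjusted p of 0.000924, 0.00125 and 0.000106. They were -0.95 with FSH (0.00348) without both arrays that went against their labels, and -1.49 with cAMP (9.59e-05). A dimmer probe set of Racgap1 was not called under any stimulus. It differed by -0.74 in basal cells (adjusted p 0.315), -0.49 with FSH (0.363) and -0.5 with cAMP (0.593).

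Of the 8 chromosome genes, 4 fell in basal cells and 2 under each of FSH and cAMP, with medians of -0.94, -0.66 and -1. Top2a, the topoisomerase that untangles sister chromatids, gave 11.26, 11.16 and 11.55 in basal cells without HPTE and 10.15, 10.09 and 9.73 at 10 µM. It gave 11.54, 11.69 and 11.7 against 10.42, 10.27 and 10.39 with FSH and 12.06, 11.2 and 11.87 against 10.11, 9.92 and 10.14 with cAMP. The arrays at 10 µM were lower throughout, by a factor of 2.52 in basal cells (-1.33 ± 0.24, adjusted p 0.00205), 2.43 with FSH (-1.28 ± 0.24, adjusted p 0.000423) and 3.14 with cAMP (-1.65 ± 0.24, adjusted p 8.13e-05). Without both arrays that went against their labels the differences were -1.26 with FSH (0.000982) and -1.91 with cAMP (3.35e-05). A second Top2a probe set differed by -1.51 in basal cells (adjusted p 0.00684).

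Mki67 encodes Ki-67, the protein that coats mitotic chromosomes and serves as a marker of dividing cells. Its basal arrays gave 9.41, 9.72 and 8.54 without HPTE and 8.2, 8.25 and 7.17 at 10 µM. Number 3 was the lowest array of both groups, which did not overlap. The difference of -1.35 ± 0.44 had an adjusted p of 0.229 without the block and 0.00174 with it. With cAMP the difference was -1.59 ± 0.44 (adjusted p 0.0684, or 0.000161 with the block), and with FSH -0.8 (0.403, or 0.0314 with the block). Incenp, the scaffold of the chromosomal passenger complex, had the smallest change of the chromosome genes in basal cells. It gave 7.47, 7.14 and 7.21 without HPTE and 6.94, 6.68 and 6.46 at 10 µM, again without overlap. The difference of -0.58 ± 0.23 was called only with the block (adjusted p 0.44 without it and 0.0357 with it).

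Among the 14 kinases, cyclins and degradation factors, 8 fell in basal cells, 5 with FSH and 6 with cAMP, with medians of -1.11, -0.91 and -1.07. Ccna2, the cyclin of S phase and G2, had the largest difference of any member in basal cells. Its arrays gave 9.44, 9.23 and 8.86 without HPTE and 7.86, 7.79 and 6.68 at 10 µM. The groups lay 1 log2 unit apart at their nearest arrays and differed by -1.73 ± 0.4, or 3.32-fold (adjusted p 0.0232). The call ended without number 1 (-1.6, adjusted p 0.123) or 2 (-1.71, 0.101) unexposed and without number 3 at 10 µM (-1.35, 0.19). With FSH the arrays gave 8.83, 8.98 and 7.99 against 8.16, 7.68 and 6.93, and with cAMP 8.7, 8.87 and 7.18 against 7.36, 6.55 and 6.53. Number 3 was the lowest unexposed array in both and lay below at least 1 exposed array. The differences of -1.01 ± 0.4 with FSH (adjusted p 0.137) and -1.43 ± 0.4 with cAMP (adjusted p 0.0631) were called only with the block (0.00161 and 9.91e-05).

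Pbk, a mitotic kinase, gave 7.73, 8.01 and 7.5 in basal cells without HPTE and 6.09, 6.46 and 5.98 at 10 µM. The groups were separate, at a difference of -1.57 ± 0.26, or 2.97-fold (adjusted p 0.00109). With FSH the difference was -1.01 ± 0.26 (adjusted p 0.0115), not called without number 2 unexposed (-0.89, adjusted p 0.0649), number 3 at 10 µM (-0.81, 0.104) or both arrays that went against their labels (-0.89, 0.0688). With cAMP it was -1.09 ± 0.26 (adjusted p 0.0234), not called without number 1 (-0.85, adjusted p 0.197) or 2 (-1.01, 0.0784) unexposed, number 2 (-1.15, 0.0534) or 3 (-0.96, 0.165) at 10 µM, or both arrays that went against their labels (-1.01, 0.0731). Aurkb, the kinase of the chromosomal passenger complex, fell by 1.42 in basal cells (adjusted p 0.0144), 0.96 with FSH (0.047) and 1.41 with cAMP (0.00961). Its basal call ended without number 1 (-1.29, adjusted p 0.0946) or 2 (-1.4, 0.0693) unexposed or number 3 at 10 µM (-1.15, 0.134), and its cAMP call without number 1 unexposed (-1.15, 0.0989) or number 3 at 10 µM (-1.24, 0.0934). Its FSH call ended without number 1 (-0.83, 0.181) or 2 (-0.9, 0.138) unexposed, number 2 (-0.86, 0.185) or 3 (-0.84, 0.199) at 10 µM, or both arrays that went against their labels (-0.9, 0.143). Ccnb2, a B cyclin, fell by 1.26, 1.03 and 1.07 in the same order (adjusted p 0.00723, 0.00723 and 0.0192). The basal Ccnb2 call ended without number 2 unexposed (-1.19, adjusted p 0.0536) or number 3 at 10 µM (-1.15, 0.0584), and the cAMP call without number 3 unexposed (-1.02, 0.0758) or number 2 at 10 µM (-0.77, 0.218).

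Cdk1, the kinase that starts mitosis, gave 10.88, 10.71 and 10.35 in basal cells without HPTE and 9.96, 9.92 and 9.21 at 10 µM. The exposed arrays were lower, by 1.93-fold (-0.95 ± 0.23, adjusted p 0.04). With cAMP the arrays gave 10.01, 9.75 and 9.47 against 9.01, 8.98 and 8.61, also without overlap (-0.88 ± 0.23, adjusted p 0.0499). With FSH they gave 9.54, 10.39 and 9.37 against 9.99, 9.69 and 9.42, which overlapped (-0.07 ± 0.23, adjusted p 0.975, or 0.24 and 0.813 without both arrays that went against their labels). The basal call ended without number 1 (-0.83, adjusted p 0.23) or 2 (-0.92, 0.169) unexposed and number 2 (-1.06, 0.0554) or 3 (-0.7, 0.278) at 10 µM. The cAMP call ended without number 1 (-0.74, 0.245) or 2 (-0.87, 0.0933) unexposed, and without number 1 (-0.95, 0.0828), 2 (-0.93, 0.0973) or 3 (-0.75, 0.288) at 10 µM. Cdc25b, the phosphatase that activates Cdk1, had the smallest difference of all members in basal cells. It gave 7.61, 7.36 and 8.04 without HPTE and 7.26, 6.74 and 7.49 at 10 µM, which overlapped (-0.51 ± 0.33, adjusted p 1, or 0.0841 with the block).

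HPTE at 1 and 5 µM was compared with the same unexposed arrays as 10 µM. At 1 µM in basal cells limma called no member and 0% of all probe sets, none passed an unadjusted p under 0.05, and the median difference was -0.01. At 5 µM in basal cells all 44 differences were below 0, with a median of -0.42 against -0.006 over all probe sets. No member was called (0.00644% of all probe sets in each direction), 8 were lower at an unadjusted p under 0.05, and 14 had exposed arrays below all unexposed ones, against 4.08% of all probe sets. The lowest differences there were Kif23 (-0.68), Ccna2 (-0.62), Pbk (-0.62) and Cenpf (-0.6, adjusted p 0.922). Between 10 and 5 µM, which share the 10 µM arrays with the comparison above, 4 members were lower in basal cells: Kif11 (-0.95, adjusted p 0.0444), Nuf2 (-0.8, 0.0126), Ect2 (-0.82, 0.039) and Racgap1 (-0.94, 0.0478). Of all probe sets, 0.0419% were called lower. With the block 16 members were lower (0.226% of all probe sets), and no call of the 4 was kept in every fit that left out 1 array.

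With FSH, 1 µM HPTE gave a median of 0.1 and 5 µM a median of -0.13, and no member was called at either dose. At 1 µM none passed an unadjusted p under 0.05, and at 5 µM 3 members were lower and 2 higher at that level. Of all probe sets, 0% were called lower and 0.00644% higher at 1 µM, and 3.08% and 3.45% at 5 µM. Kif23, Cdk1 and Kif18a were above the unexposed FSH group, at 0.69 (adjusted p 0.358), 0.54 (0.231) and 0.57 (0.221). The block called Kif23 (adjusted p 0.0469) and Cdk1 (0.0307) higher and Pttg1, the anaphase inhibitor securin, lower (-0.8, 0.0185, against 0.368 without the block), with 6.4% of all probe sets higher and 7.86% lower. Without both arrays that went against their labels the differences were 1.22 for Kif23 (adjusted p 0.0237) and 0.85 for Cdk1 (0.0224). Between 10 and 5 µM, Nuf2 (-0.74, adjusted p 0.0117) and Ect2 (-0.79, 0.0311) were lower, where 0.0322% of all probe sets were, and the block called 8 members lower (0.158%). Nuf2 was not called without number 1 (-0.7, adjusted p 0.14) or 2 (-0.73, 0.0549) at 5 µM or number 3 at 10 µM (-0.64, 0.154). Ect2 was not called without number 1 (-0.77, 0.232), 2 (-0.77, 0.139) or 3 (-0.82, 0.101) at 5 µM or number 2 (-0.85, 0.0638) or 3 (-0.62, 0.404) at 10 µM.

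With cAMP, 43 of the 44 differences at 1 µM HPTE were above 0, with a median of 0.61 against 0.001 over all probe sets. No member was called, with or without the block (0% of all probe sets without it), 28 were higher at an unadjusted p under 0.05, and 22 had all arrays above the unexposed ones, against 3.02% of all probe sets. Bub1 gave 8.92, 8.98 and 8.88 at 1 µM against 8.51, 8.24 and 7.7, Spc25 8.88, 8.91 and 8.38 against 8.39, 8.15 and 7.04, and Kif11 8.24, 8.24 and 8.27 against 7.97, 7.6 and 7.35. Bub1 and Kif11 did not overlap, and unexposed number 3 was the lowest array in each gene. The differences were 0.77 for Bub1, 0.86 for Spc25, 0.96 for Mki67 and 0.61 for Kif11. Without both arrays that went against their labels the median was 0.616 and no member was called. By array number the mean over members was higher at 1 µM by 0.36, 0.57 and 0.84. At 5 µM the median was 0.11 and the mean by array number -0.35, 0.06 and 0.64, with no member called (0% of all probe sets lower and 0.00322% higher) and 1 higher at an unadjusted p under 0.05.

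Between 10 and 5 µM with cAMP, 22 members were lower and none higher, where 0.358% of all probe sets were called lower. The median was -1.16, against 0.027 over all probe sets, and in 41 members the arrays did not overlap (5.49% of all probe sets). Ect2 (-1.4, adjusted p 9.83e-06), Nuf2 (-1.06, 4.34e-05), Racgap1 (-1.41, 0.000144), Top2a (-1.56, 0.000517), Bub1 (-1.49, 0.000561) and Ccna2 (-1.76, 0.0253) were among them. The block called 36 (1.32% of all probe sets), a fit on the compared groups alone 0, and leaving out 1 array 12 to 21, the lowest without number 2 at 10 µM.

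**Figure D4:**
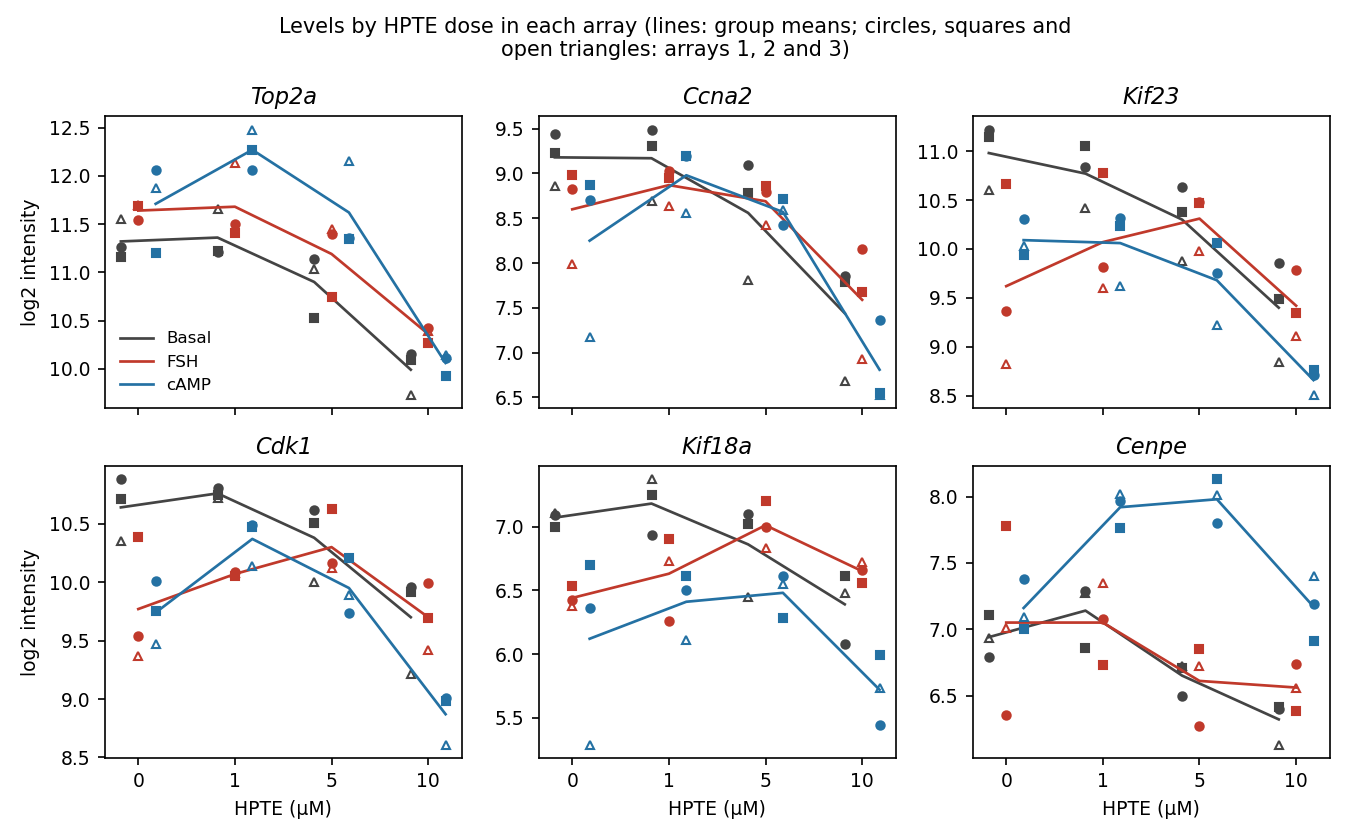
Log2 intensity of Top2a, Ccna2, Kif23, Cdk1, Kif18a and Cenpe on each array against HPTE dose in basal, FSH and cAMP cells; symbols mark the array number and lines join group means. Top2a and Ccna2 are lowest at 10 µM under each stimulus, Kif23 and Cdk1 with FSH differ by only -0.2 and -0.07 between 10 and 0 µM, and Cenpe with cAMP is highest at 5 µM.

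FSH alone lowered 3 of the 44 mitosis genes against unexposed basal cells, where 4.18% of all probe sets were called lower and 3.88% higher, so the share of members called was near the background. The median difference was -0.18. Kif23 gave 9.37, 10.66 and 8.82 with FSH and 11.22, 11.14 and 10.6 in basal cells, and Cdk1 9.54, 10.39 and 9.37 against 10.88, 10.71 and 10.35. In both genes FSH number 2 overlapped the basal arrays and the other two FSH arrays lay below them. The differences were -1.37 ± 0.35 for Kif23 (2.58-fold, adjusted p 0.0115) and -0.88 ± 0.23 for Cdk1 (1.84-fold, adjusted p 0.0146). Without both arrays that went against their labels they were -1.89 (adjusted p 0.000304) and -1.19 (0.000877). Ect2 gave 10.8, 11.04 and 10.85 with FSH, all below its basal arrays, a difference of -0.51 ± 0.16 (adjusted p 0.0402), or -0.58 (0.0409) without both arrays that went against their labels. No call of the 3 was kept in every fit that left out 1 array. Kif23 was not called without basal number 1 (-1.25, adjusted p 0.063) or 2 (-1.29, 0.054) or FSH number 1 (-1.24, 0.0598) or 3 (-0.97, 0.145). Cdk1 was not called without basal number 1 (-0.76, 0.0944) or 2 (-0.85, 0.0575) or FSH number 1 (-0.77, 0.0845) or 3 (-0.68, 0.139). For Ect2 the adjusted p was 0.0652, 0.117 and 0.129 without basal number 1, 2 and 3, and 0.144 and 0.133 without FSH number 1 and 3. At 10 µM HPTE, FSH and basal cells differed by 0.02 in Kif23 and 0 in Cdk1, and no member was called, as was 0% of all probe sets (1 member higher at an unadjusted p under 0.05).

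Unexposed cAMP cells also had 3 members lower than basal cells, where 4.49% of all probe sets were called lower, again a share near the background. The median difference was -0.39. Kif18a gave 6.36, 6.7 and 5.29 against 7.09, 7 and 7.11, all below the basal arrays and lowest on number 3. The difference was -0.95 ± 0.24 (1.93-fold, adjusted p 0.0114), and -0.54 without cAMP number 3 (adjusted p 0.158). Cdk1 differed by -0.9 ± 0.23 (adjusted p 0.0129) and Ect2 by -0.63 ± 0.16 (adjusted p 0.00936), neither with overlapping arrays. Kif18a, without both arrays that went against their labels, differed by -1.24 (adjusted p 0.00135), Cdk1 by -0.91 (0.0133) and Ect2 by -0.59 (0.0388). Cdk1 was not called without basal number 1 (-0.79, adjusted p 0.0855) or 2 (-0.87, 0.0535) or cAMP number 3 (-0.77, 0.0849). The block called 10 members lower (8.73% of all probe sets), among them Kif23 (-0.89, adjusted p 0.00799 against 0.161) and Ccna2 (-0.93, 0.00383 against 0.208). The comparisons of FSH and of cAMP with basal cells share the basal arrays. Between unexposed FSH and cAMP cells no member and 0% of all probe sets were called, and no member passed an unadjusted p under 0.05. That comparison holds both arrays that went against their labels, and without them 0 members were called while 0.751% of all probe sets were lower and 1.44% higher. With the block added, 2 members were lower (2.56% of all probe sets).

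At each HPTE dose cAMP cells had more Cenpe than basal cells. Without HPTE the difference was 0.22 in the same direction, with overlapping arrays and no call. The HPTE effect at 1, 5 or 10 µM differed between cAMP and basal cells in 0 members called, with or without the block. At each dose the share of members called higher was near or below that of all probe sets. At 5 µM the Cenpe arrays gave 7.8, 8.13 and 8.01 with cAMP and 6.5, 6.71 and 6.72 in basal cells. At 1 µM they gave 7.97, 7.76 and 8.02 against 7.29, 6.86 and 7.27. Neither pair of groups overlapped. The differences were 1.33 ± 0.23 at 5 µM (2.52-fold, adjusted p 0.000169, the only member called there, where 3.99% of all probe sets were higher), 0.78 ± 0.23 at 1 µM (1.72-fold, adjusted p 0.0288) and 0.85 at 10 µM (1.8-fold, adjusted p 0.0208). The call at 5 µM was kept without any 1 array. That at 1 µM ended without cAMP number 1 (0.75, adjusted p 0.0926) or 3 (0.73, 0.108) or basal number 2 (0.64, 0.167), and that at 10 µM without cAMP number 1 (0.84, 0.0691) or 3 (0.73, 0.123) or basal number 3 (0.76, 0.0924).

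At 1 µM cAMP cells also had more Top2a, with 12.06, 12.27 and 12.48 against 11.21, 11.22 and 11.66 and no overlap. That difference of 0.91 ± 0.24 (adjusted p 0.0115) was not called without basal number 1 (0.83, adjusted p 0.059) or 2 (0.84, 0.0574) or cAMP number 3 (0.8, 0.0733). Kif18a was lower, at -0.77 (adjusted p 0.0432), which was not called without cAMP number 1 (-0.82, 0.0781), 2 (-0.87, 0.0525) or 3 (-0.62, 0.228) or basal number 2 (-0.74, 0.129) or 3 (-0.68, 0.165). Of all probe sets, 4.24% were called higher and 4.47% lower, so the 2 members higher and 1 lower were near or below the background. Pttg1 gave 10.12, 10.1 and 10.88 with cAMP against 9.22, 8.72 and 9.38 in basal cells, which did not overlap. Its difference of 1.26 ± 0.41 at 1 µM and of 1.2 at 5 µM was called with the block (adjusted p 0.000171 and 0.000329) and not without it (0.0531 and 0.0731). With the block, 9 members were higher (9.83% of all probe sets) and 2 lower (8.07%) at 1 µM and 4 higher (9.11%) at 5 µM. The shares for the 2 lower and the 4 higher were near or below the background.

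At 10 µM, cAMP cells had less Ect2 (-0.68, adjusted p 0.00532), Cdk1 (-0.83, 0.0274) and the condensin subunit Smc2 (-0.54, 0.0174) than basal cells, where 3.45% of all probe sets were called lower and 2.73% higher. Ect2 was not called without basal number 1 (-0.55, 0.0598) or 2 (-0.58, 0.0526), nor Cdk1 without either of these (-0.7, 0.167 and -0.72, 0.147) or without cAMP number 2 (-0.89, 0.0532) or 3 (-0.7, 0.154). Smc2 was not called without basal number 2 (-0.5, 0.0799) or 3 (-0.51, 0.0602) or cAMP number 2 (-0.52, 0.0678) or 3 (-0.53, 0.0555). FSH cells had more of 6 members than cAMP cells at 10 µM, where 2.8% of all probe sets were called higher. These were Ect2 (0.81, adjusted p 0.00105), Smc2 (0.65, 0.00387), Kif18a (0.92, 0.0197), Bub1 (0.84, 0.0242), Cdk1 (0.83, 0.0325) and Kif11 (0.65, 0.0431). Ect2 and Smc2 kept their calls without any 1 array, the other 4 did not, and the mean of both Kif11 probe sets gave 0.3. The block called 15 members higher (6.06% of all probe sets).

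Among 61 measured mitosis genes outside the set, 10 µM HPTE lowered 17 in basal cells, 11 with FSH and 16 with cAMP and raised none, with medians of -0.65, -0.4 and -0.53, where 0.602%, 3.95% and 0.486% of all probe sets were called lower. The largest falls in basal cells were those of Depdc1 (-1.52 ± 0.25, adjusted p 0.000897), the centromere protein gene Cenpw (-1.5 ± 0.34, 0.0232) and the centriole kinase gene Plk4 (-1.48 ± 0.19, 4.15e-05). Of 39 DNA replication genes, 4 fell in basal cells, 1 with FSH and 4 with cAMP, with medians of -0.57, -0.31 and -0.43, and the share with FSH was near that over all probe sets. Tk1, thymidine kinase, fell by 1.31 in basal cells (adjusted p 0.000315), and Pole2, a DNA polymerase epsilon subunit, by 1.17 (0.0128). None of the 10 cohesin genes and none of the 13 genes of the anaphase-promoting complex was called in basal cells or with cAMP, with medians of -0.12 and -0.09 in basal cells. With FSH, 3 cohesin genes fell (median -0.2), namely Stag2 (-0.51, adjusted p 0.00493), Wapl (-0.67, 0.00602) and Pds5b (-0.57, 0.011). In the anaphase-promoting complex with FSH, Cdc26 fell (-0.54, 0.0243) and Cdc27 rose (0.57, 0.00338). Calls of genes outside the set were not rerun with single arrays left out.

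Of 34 genes that regulate mitotic transcription or cell cycle arrest, 2 fell and 1 rose at 10 µM in basal cells, 5 fell and 1 rose with FSH, and 3 fell and 1 rose with cAMP. Over all probe sets, 0.602%, 3.95% and 0.486% were called lower and 0.416%, 4.51% and 1.2% higher in the same order, so the rise of 1 gene with FSH was near the background. Lin9, a subunit of the complex that binds the cell cycle homology region, fell by 0.54 in basal cells (adjusted p 0.0111), 0.45 with FSH (0.00882) and 0.54 with cAMP (0.0063). E2f8, a repressor of the E2F family, fell by 1.28 in basal cells (adjusted p 0.000527), 1.03 with FSH (0.000731) and 0.95 with cAMP (0.00729). Gadd45a, a stress gene that restrains entry into mitosis, rose by 1.73 ± 0.44 in basal cells (adjusted p 0.0488) and by 2.47 with FSH (adjusted p 0.000273), and was not called with cAMP (1.1, adjusted p 0.33). The gene that rose with cAMP was Cdkn1b, an inhibitor of cyclin-dependent kinases (0.38, adjusted p 0.0168). The activators Foxm1 (-0.56, adjusted p 0.447), Mybl2 (-0.13, 1) and E2f1 (-0.52, 0.713) and the inhibitor Cdkn1a (0.1, 1) were not called in basal cells.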

How the data were processed

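Per the labels' protocols, RNA was amplified with NuGEN chemistry and hybridised to Affymetrix rat arrays, 1 array per sample. The authors deposited 1 table of linear intensity per probe set, and RMA is named in the submitters' processing notes without a version. The labels name ArrayAssist as software. Arrays have no read depth, and their number, 3 per group, limits the precision.

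Of the deposited intensities, log2 was taken with no offset. Control probe sets were left out, and the platform annotation gave 1 symbol to 20826 probe sets, several to 436 and none to 9780. Means of 12 groups were fitted to 31042 probe sets (limma 3.58.1 in R 4.3.3, 24 residual degrees of freedom), with Benjamini-Hochberg adjustment in each of 25 comparisons. The fit was tested on simulated data. Other steps used python 3.11.15 with pandas 2.3.3, numpy 2.4.6 and matplotlib 3.10.9.

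Groups and array numbers come from the sample titles. Deviations from group means of arrays with the same number correlated above 0.1 for all 3 numbers in 21 of 22 comparisons between groups (the exception was FSH against cAMP without HPTE, with 0.35, -0.124 and 0.432). The numbers were therefore taken to pair the samples, a reading of these values and not of a label. Blocked values are given for some of the members whose call they change, not for all.

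Members and lists were chosen with earlier results of these data known. By rule, array values are given in each role for the 2 members with the largest and the 1 with the smallest difference at 10 µM HPTE in basal cells, and for the 3 with the largest difference for FSH and for cAMP alone. Members that differ from the rest in the other comparisons were added after their values were seen. Of other lists, the 3 largest called differences per direction and any regulator may be named. Promoters were read from RefSeq's table. Alternatives covered the block, normalization, offset, filter, variance model, probe set choice and left-out arrays.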

Additional observations from a re-analysis of the deposited data

Results flagged for a closer look

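The differences between stimuli below are those of the HPTE effect, FSH minus the other stimulus, on the log2 scale, from limma with Benjamini-Hochberg adjustment over all probe sets. The comparisons at 5 µM were added after seeing the data. In the fit on 12 group means 1 of them was called, where 0.821% of all probe sets were lower and 1.24% higher for FSH against cAMP at 5 µM. With the array number as a block, 2 of 44 members were lower and 1 higher there (3.37% and 3.05% of all probe sets), and 2 were higher for FSH against basal cells (3.23%), shares near the background. The effect of 5 µM HPTE on Cenpe, the kinetochore motor, differed by -1.26 between FSH and cAMP (adjusted p 0.036), and -1.26 with the array number as a block (0.0132). Without number 2 of the unexposed FSH and cAMP groups it was -0.81 (adjusted p 0.161).

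The other differences were called with the array number as a block and not in the fit on group means. For Kif23, the centralspindlin motor, the effect of 10 µM HPTE was 1.39 higher with FSH than in basal cells (adjusted p 0.00842 with the block, 0.201 without it) and 1.23 higher than with cAMP (0.0228 and 0.34). At 5 µM the Kif23 differences were 1.38 against basal cells (adjusted p 0.0108 with the block) and 1.11 against cAMP (0.0418). Without both arrays that went against their labels, and without a block, they were 1.91 and 1.83 at 10 µM (adjusted p 0.0138 and 0.0255) and 1.9 and 1.71 at 5 µM (0.0171 and 0.0447).

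Cdk1 differed by 0.88 between FSH and basal cells at 10 µM (adjusted p 0.0218 with the block, 0.239 without it), by 0.81 between FSH and cAMP at 10 µM (0.042 and 0.35) and by 0.81 between FSH and basal cells at 5 µM (0.046 with the block). Without both arrays these were 1.19 (adjusted p 0.0289), 1.12 (0.0598) and 1.12 (0.0528). Hmmr differed by 0.74 between FSH and basal cells at 10 µM (adjusted p 0.0296 with the block, 0.288 without it, and 0.91 with 0.125 without both arrays). Ect2 differed by 0.69 between FSH and cAMP at 10 µM (adjusted p 0.0363 with the block, 0.128 without it, and 0.8 with 0.0836 without both arrays). Pttg1, securin, differed by -1.12 between FSH and cAMP at 5 µM (adjusted p 0.0365 with the block) and by -0.56 without both arrays (0.784).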

How the results depend on the processing

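No called member changed direction under any alternative run. Counts of members called kept within 1.5 times of those reported in all 50 counts with an offset of 16 and with the probe set of largest SD. With the array number as a block (the pairing of arrays), members called lower numbered 35 with FSH, 37 with cAMP, 16, 8 and 36 for 10 against 5 µM in basal, FSH and cAMP cells, 1 for 5 µM with FSH, 1 for FSH against basal cells at 1 µM, and 10, 2 and 7 for cAMP against basal cells at 0, 1 and 10 µM; higher were 2 for 5 µM with FSH, 9 and 4 for cAMP against basal cells at 1 and 5 µM, 15 for FSH against cAMP at 10 µM and 3 for each difference of the 10 µM effect between FSH and another stimulus. All 26, 14 and 20 members called lower at 10 µM in basal, FSH and cAMP cells were also called with the block. No other call was ended by the block. With it, 7.86% of all probe sets were lower and 6.4% higher for 5 µM with FSH. For cAMP against basal cells, 8.07% were lower at 1 µM and 9.11% higher at 5 µM. The 1, 2, 2 and 4 members there were near or below these shares. Counts in this section describe how the processing matters. Small ones, and those given without a share over all probe sets, are not read as results.

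Without number 2 of the unexposed FSH and cAMP groups, 7 members were lower at 10 µM with FSH, and higher were 2 for 5 µM with FSH, 2 for cAMP against basal cells at 5 µM, and 2 and 1 for the difference of the 10 µM effect between FSH and basal cells and between FSH and cAMP. With the block added, lower were 41, 23 and 34 at 10 µM in basal, FSH and cAMP cells, 21, 11 and 38 for 10 against 5 µM, 7 and 2 for FSH compared with basal cells at 0 and 1 µM, 11, 2, 2 and 10 for cAMP compared with basal cells at 0, 1, 5 and 10 µM, and 2 and 1 for FSH against cAMP at 0 and 10 µM. Higher were 1 and 2 with FSH at 1 and 5 µM and 1 with cAMP at 5 µM. For cAMP against basal cells 1, 9 and 4 were higher at 0, 1 and 5 µM, and for FSH against cAMP 16 at 10 µM. For the 2 differences of the 10 µM effect 5 and 4 were higher, where 4.47% and 3.75% of all probe sets were. In that fit Bub1 and Aurka with FSH were not called.

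On arrays 1 and 2 alone, lower were 15 at 10 µM in basal cells, 0, 0 and 11 for 10 against 5 µM and 0 for cAMP against basal cells at 1 µM, and higher 0 at 10 µM. On the compared groups alone, lower were 9, 4 and 3 at 10 µM, 0 for each of the 3 comparisons of 10 and 5 µM, 1 for FSH and 0 for cAMP against basal cells without HPTE, and 0 and 0 for cAMP at 1 and 10 µM; fewer arrays then estimate the spread. Quantile normalization gave 1 lower for 10 against 5 µM with FSH, and it and median centring gave 0 lower at 1 µM and 2 higher at 5 µM for cAMP against basal cells. The filter on dim probe sets gave 3 for the last, trend and robust 1 for 10 against 5 µM in basal cells, and the mean of all probe sets 2 there, 5 lower for cAMP alone and 1 for the FSH minus basal effect. The causes were not tested.

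Leaving out each array in turn gave 13 to 25 lower at 10 µM in basal cells, 7 to 19 with FSH and 10 to 23 with cAMP; 0 to 2, 0 to 2 and 12 to 21 for 10 against 5 µM; 0 to 3 for FSH and 1 to 4 for cAMP alone; 0 to 1 lower and 0 to 2 higher for 5 µM with FSH; 0 to 1 lower and 0 to 2 higher, 1 to 2 higher, and 0 to 3 lower and 0 to 1 higher for cAMP against basal cells at 1, 5 and 10 µM; 2 to 4 higher for FSH against cAMP at 10 µM; and 0 to 2 for each FSH difference of the 10 µM effect. In every such fit, 12 of the 26, 6 of the 14 and 9 of the 20 calls at 10 µM remained. Dim probe sets near background understate differences, and 3 arrays per group limit all calls.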

Other observations

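Over the 12 group means, the genes outside all lists whose profile was most like the mean of the mitosis genes were Spag5 (Pearson r 0.985), a spindle-associated protein, Cenpq (0.979), a centromere protein, Pclaf (0.974), Ube2t (0.973), Esco2 (0.973), Lcat (0.972), Lsm3 (0.97), Cdca5l1 (0.966), Dtl (0.965) and Topbp1 (0.964). Among the members themselves r ran from 0.507 for Cenpe, 0.549 for Kif18a, 0.767 for Pttg1, 0.79 for Kif23 and 0.811 for Cdk1 to 0.994 for Cdca3 and Smc4. These describe 12 points from 36 arrays that share 4 doses and 3 stimuli, and each member is part of the mean it is set against.

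Some members were called or not by the probe set used. At 10 µM HPTE in basal cells, Nusap1, a microtubule-bundling protein, differed by -1.25 (adjusted p 0.291) on the brighter probe set and by -1.19 (0.00132) on the other. Smc4, a condensin subunit, differed by -1.1 (0.298) and -0.79 (0.0175), and the cyclin gene Ccnb1 by -1.11 (0.0728) and -1.05 (0.0235). These p-values are from limma over all probe sets, without the block. With the array number as a block, the brighter probe sets of Nusap1, Smc4 and Ccnb1 were called as well.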
